A study of Macaca mulatta with 6 samples.

Results

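The LIN28 and let-7 pathway was read here through 8 genes: LIN28B, TRIM71, DICER1, the RNA-binding proteins IGF2BP1, IGF2BP2 and IGF2BP3, and the chromatin proteins HMGA1 and HMGA2. They were chosen by name as regulators or targets of the pathway, and each symbol had 1 row among the 30246 gene rows of every file. All 8 were among the 13685 rows that were tested (2 or more libraries with an FPKM of at least 1). FPKM counts sequenced fragments relative to transcript length and library size. It allows a rough comparison between genes, which is uncertain where a row may hold only a part of a gene, as for HMGA2 below.

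RNA was sequenced from 6 lines of induced pluripotent stem cells (iPSCs) made from rhesus monkey fibroblasts, with 2 lines in each of 3 groups. The male naive and female naive lines grew in the same medium, called 6SM in the labels, with 15% serum replacement, N2 supplement, 4 ng/ml bFGF, 10 ng/ml human LIF, 3 µM CHIR99021 (a GSK3 inhibitor), 0.5 µM PD0325901 (MEK), 10 µM SB203580 (p38) and 10 µM SP600125 (JNK). The primed lines, both male, grew in hESM, a medium of 20% serum replacement with bFGF whose description names none of these inhibitors. Feeder cells were taken away before RNA was isolated, and the labels tie no line to a donor. There were no female primed lines among the samples, so sex cannot be told apart from line within the naive state. Every SD below is over 2 lines (n = 2), and p-values reflect how far such lines differ, which may be technical.

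LIN28 proteins bind let-7 precursors and block their maturation in early embryonic cells, partly by recruiting uridylating enzymes that mark the precursor for decay. Mature let-7 silences messenger RNAs that carry its sites, among them LIN28B itself, HMGA2, the IGF2BP genes, TRIM71 and DICER1. LIN28B and let-7 thus inhibit each other. Pluripotent cells are known for high LIN28 and little mature let-7, and differentiated cells for the reverse.

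Depth differed between the groups. Estimated from the deposited error bounds, the male naive libraries held 1478692 and 1754857 effective fragments and the other 4 held 7607125 to 10013491. POU5F1, the OCT4 factor, was at 536 and 571 FPKM (male naive), 738 and 1160 (female naive) and 135 and 109 (primed). SOX2 was at 85.3 to 141 FPKM in all 6, so each library expressed both of these genes of pluripotent cells. NANOG, also part of this check, was low in primed libraries. It was at 28.7 and 30.7 FPKM (male naive), 73.8 and 95.9 (female naive) and 0.933 and 2.09 (primed). The summed FPKM of 14 fibroblast and feeder markers was 124 to 153 (male naive), 233 to 357 (female naive) and 45.6 to 312 (primed), with none of the 14 at 0 in every library. In bulk RNA, fewer cells of a type and less RNA per cell cannot be told apart.

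In naive against primed lines 7 of the 8 genes were not called, and HMGA2 was lower on average, with low values in the female naive lines and not in the male ones. Limma called 0 genes higher and 1 lower of 8 at an adjusted p under 0.05, and 2 of 8 had an unadjusted p under 0.05. Of the 13685 tested rows, 4235 had an unadjusted p under 0.05 too, so the count of 2 is not read as a result. Over all tested rows 11.3% were called in this comparison, 6.72% higher (920 rows) and 4.59% lower (628 rows). With upper-quartile scaling the split of calls over all rows turned to 693 higher and 878 lower. The median log2 difference of the 8 genes was 0.08, beside 0.03 over all tested rows, and the 8 differences ran from -0.71 to 0.49. All 8 of the 95% intervals lay within 1 log2 unit of no difference. All differences in this text are on the log2(FPKM + 1) scale.

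By mean level over the 6 libraries the order was HMGA1 (1449.9 FPKM), HMGA2 (275), IGF2BP3 (101), IGF2BP1 (72.3), IGF2BP2 (66.0), LIN28B (58.3), TRIM71 (25.7) and DICER1 (13.1). HMGA1 stood above 99.5% of tested rows by its mean and DICER1 above 53.5%. The ends of the order held in every library: HMGA1 was above HMGA2, LIN28B above TRIM71 and TRIM71 above DICER1 in 6 of 6, with deposited error bounds apart in all of them. HMGA2 was above IGF2BP3 in 6 of 6 libraries, with bounds apart in 4. The middle of the order changed between libraries. IGF2BP3 was above IGF2BP1 in 5 of 6 libraries (bounds apart in 4), the exception being primed 1. IGF2BP1 was above IGF2BP2 in 4 of 6 (bounds apart in 3), with the reverse order in both female naive libraries. IGF2BP2 was above LIN28B in 4 of 6 (bounds apart in 2), with the reverse order in both male naive libraries.

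**Figure D1:**
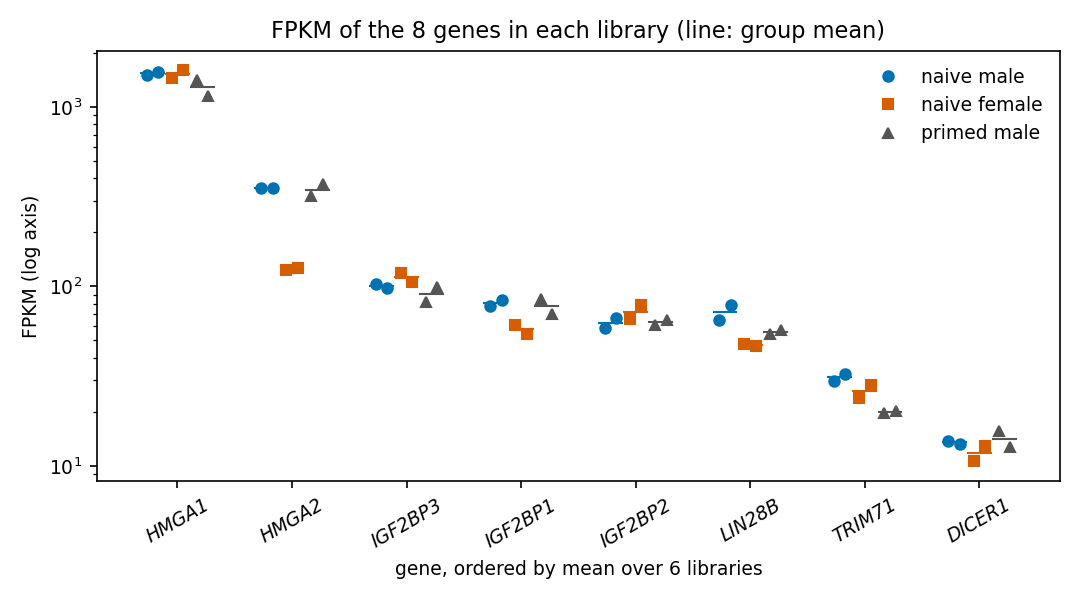
FPKM (log axis) of each of the 8 genes in each of the 6 libraries. Symbols are single libraries, marked by group, and short lines are group means. The female naive libraries stand below the other 4 for HMGA2, and the primed libraries below the naive ones for TRIM71.

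LIN28B (ENSMMUG00000014470, chromosome 4, 100978264 to 101092006), which blocks let-7 maturation, was at 65.1 and 79.0 FPKM (male naive), 47.5 and 46.4 (female naive) and 54.0 and 57.5 (primed). The male naive libraries were the highest and the female naive ones the lowest, with primed libraries between them and no overlap between the 3 groups. The group means were 72.1 ± 9.84, 47.0 ± 0.781 and 55.7 ± 2.49 FPKM in the same order. None of the comparisons passed the test. The log2 difference of naive against primed lines was 0.06 (SE 0.12, 95% interval -0.24 to 0.36, adjusted p = 0.779), and it was -0.04 and -0.07 with upper-quartile and quantile scaling. Male naive against male primed lines gave 0.36 (SE 0.14, adjusted p = 0.178) and female against male naive lines -0.6 (SE 0.14, 95% interval -0.94 to -0.26, adjusted p = 0.0807). The male naive values rest on 106 and 108 effective fragments and those of the other libraries on 361 to 497.

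TRIM71 (ENSMMUG00000004538, chromosome 2, 175302987 to 175378699), a let-7 target of the TRIM-NHL family that represses messenger RNAs in embryonic cells, was at 29.6 and 32.6 FPKM (male naive), 23.9 and 28.1 (female naive) and 19.8 and 20.2 (primed). Every naive library was above both primed ones. The fitted fold was 1.40 (95% interval 1.12 to 1.75), a log2 difference of 0.49 (SE 0.13) that missed the threshold (adjusted p = 0.0655). With precision weights the same difference passed (adjusted p = 0.0494), and over all 21 alternatives it ran from 0.36 to 0.61. Within males the difference was 0.61 (SE 0.15, adjusted p = 0.072), and female against male naive lines gave -0.25 (SE 0.15, adjusted p = 0.395).

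DICER1 (ENSMMUG00000023305, chromosome 7, 158329898 to 158396948), the nuclease that cuts microRNA precursors to their mature length, was at 13.8 and 13.2 FPKM (male naive), 10.6 and 12.9 (female naive) and 15.6 and 12.7 (primed). Naive and primed libraries overlapped. The log2 difference of naive against primed lines was -0.15 (SE 0.16, 95% interval -0.55 to 0.24, adjusted p = 0.573).

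The microRNAs themselves were not measured by these libraries in a usable way. The files hold 12 rows for let-7 and mir-98 hairpins, spanning 72 to 94 bp, and all 12 were listed at 0 in all 6 libraries. Of the 512 microRNA rows in the files 501 were listed at 0 throughout, so this says nothing about let-7 levels in either state. LIN28A, the paralog of LIN28B, was also listed at 0 in every library. So was HMGN2, a broadly expressed chromatin protein, and a 0 in these files therefore need not mean that a gene was not expressed. Both were named after their values were seen.

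The 3 IGF2BP genes encode paralogous proteins that bind and stabilize messenger RNAs, including transcripts with N6-methyladenosine, and are typical of fetal and embryonic cells. Their summed level was close to constant, at 240 and 249 FPKM (male naive), 246 and 239 (female naive) and 228 and 234 (primed). IGF2BP3 (ENSMMUG00000004839, chromosome 3, 102763857 to 102918186) was at 103 and 97.4 FPKM (male naive), 119 and 106 (female naive) and 82.2 and 98.9 (primed). IGF2BP2 (ENSMMUG00000023416, chromosome 2, 100820352 to 101009407) was at 58.7 and 66.8, 65.7 and 78.9, and 61.2 and 64.7 FPKM in the same order. Naive and primed libraries overlapped for both genes. In naive against primed lines IGF2BP3 had a log2 difference of 0.23 (SE 0.12, 95% interval -0.07 to 0.53, adjusted p = 0.254) and IGF2BP2 one of 0.09 (SE 0.13, 95% interval -0.21 to 0.4, adjusted p = 0.662).

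IGF2BP1 (ENSMMUG00000011533, chromosome 16, 33231513 to 33285846) was at 78.1 and 84.4 FPKM (male naive), 61.2 and 54.6 (female naive) and 84.9 and 70.5 (primed). Both female naive libraries were below the other 4, while male naive and primed libraries overlapped. Female against male naive lines gave a log2 difference of -0.48 (SE 0.15, 95% interval -0.84 to -0.13), which was not called (adjusted p = 0.133). In naive against primed lines the difference was -0.17 (SE 0.13, adjusted p = 0.4). As a share of the summed IGF2BP level, which does not depend on the scaling between libraries, IGF2BP1 was at 32.6% and 33.9% (male naive), 24.8% and 22.8% (female naive) and 37.2% and 30.1% (primed). IGF2BP3 held 36% to 48.5% and IGF2BP2 24.5% to 32.9%, and IGF2BP3 had the highest share in 5 of the 6 libraries, the exception being primed 1.

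**Figure D2:**
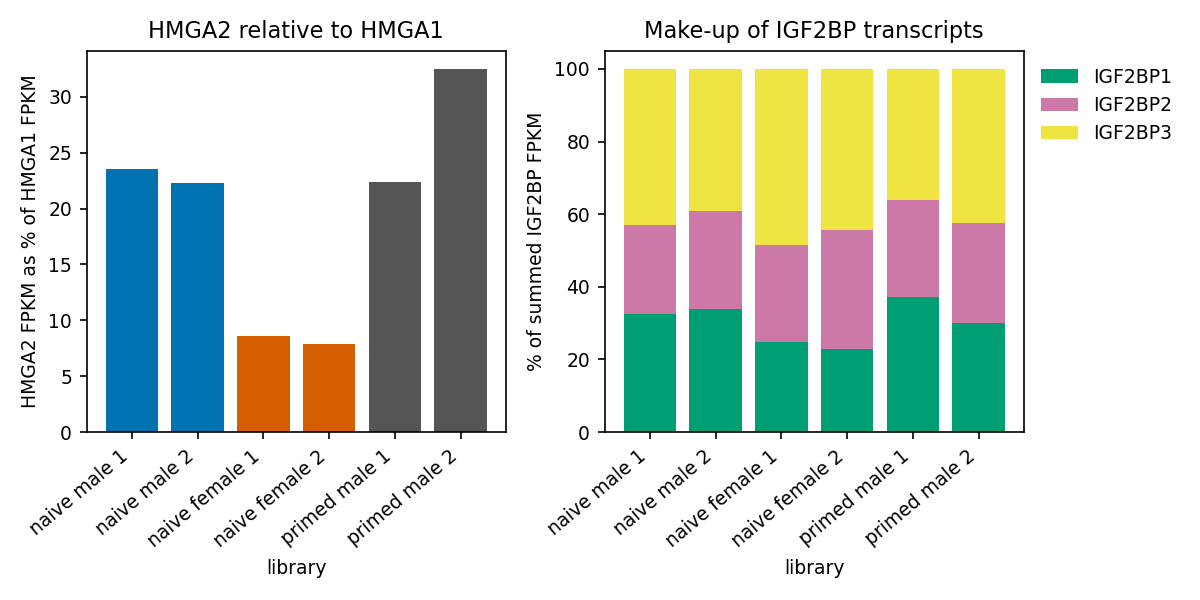
Left, FPKM of HMGA2 as a percentage of that of HMGA1 in each library; right, the share of IGF2BP1, IGF2BP2 and IGF2BP3 in their summed FPKM in each library. HMGA2 was at 7.92% and 8.62% of HMGA1 (female naive) and at 22.3% to 32.5% in the other libraries, and the IGF2BP1 share was 22.8% and 24.8% (female naive) and 30.1% to 37.2% in the others.

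HMGA1 and HMGA2 are small proteins that bind the minor groove of AT-rich DNA and are abundant in embryonic cells, and HMGA2 is a classical let-7 target. HMGA1 (ENSMMUG00000019529, chromosome 4, 33938689 to 33947085) was at 1508 and 1575.2 FPKM (male naive), 1441.5 and 1601.2 (female naive) and 1421.7 and 1151.5 (primed). All naive libraries were above both primed ones, the closest being female naive 1 and primed 1. The log2 difference of 0.26 (SE 0.13, 95% interval -0.06 to 0.57) was not called (adjusted p = 0.234). HMGA1 has processed pseudogene copies in primate genomes, and the way reads with several matches were counted is unknown here, so its level is uncertain to an extent that was not tested.

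HMGA2 (ENSMMUG00000022660, chromosome 11, 62860136 to 62873365) was at 354 and 352 FPKM (male naive), 124 and 127 (female naive) and 318 and 374 (primed). Both female naive libraries were far below the other 4, and the male naive values lay inside the range of the primed ones. The means were 353 ± 1.33 FPKM (male naive), 126 ± 1.89 (female naive) and 346 ± 39.6 (primed). Female naive lines thus had 0.358 times the male naive level (95% interval 0.291 to 0.44), a log2 difference of -1.48 (SE 0.12, adjusted p = 0.00436) that was lower in 2 of 2 lines. Male naive against male primed lines gave 0.03 (SE 0.12, 95% interval -0.27 to 0.33, adjusted p = 0.894), a value that took the other sign with upper-quartile, quantile and median-of-ratios scaling (-0.14, -0.28 and -0.08). Without the male naive libraries, the female naive lines alone differed from primed lines by -1.45 (SE 0.15, adjusted p = 0.0272).

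The naive against primed call of HMGA2 averages a low and a high group. Its log2 difference was -0.71 (SE 0.11, adjusted p = 0.0168) with both sexes weighted equally. It was 0.03 without the female naive libraries (adjusted p = 0.903), and it was not called with the 4 naive libraries taken as 1 group (adjusted p = 0.444). Leaving out any 1 naive library kept the value at -0.7 to -0.72 but ended the call (adjusted p = 0.0556 to 0.0728). The female against male naive call ended in the same way when any 1 naive library was left out (adjusted p = 0.0509 to 0.0707), with values of -1.47 to -1.5.

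The HMGA2 row yields few fragments for its FPKM. It spans 13230 bp, and it may hold only a part of the gene, which was not tested. Its level relative to other genes, its place in the order and its percentage of HMGA1 are therefore uncertain, whereas comparisons between libraries use the same row throughout. It had 79 and 64 effective fragments (male naive), 130 and 163 (female naive) and 406 and 378 (primed). In primed 1 it had 1.28 effective fragments per FPKM, where the other 7 genes had 9.21 to 81.0. The counting error alone gives the female against male naive difference an SE of 0.15 log2 units, above the 0.12 that limma estimated from 2 lines a group, and the SD of 1.33 FPKM between the male naive lines is far below the deposited bounds of 274 to 433 FPKM of male naive 1. Set against HMGA1 of the same library, HMGA2 was at 23.5% and 22.3% (male naive), 8.62% and 7.92% (female naive) and 22.4% and 32.5% (primed), a ratio that does not depend on how libraries are scaled.

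**Figure D3:**
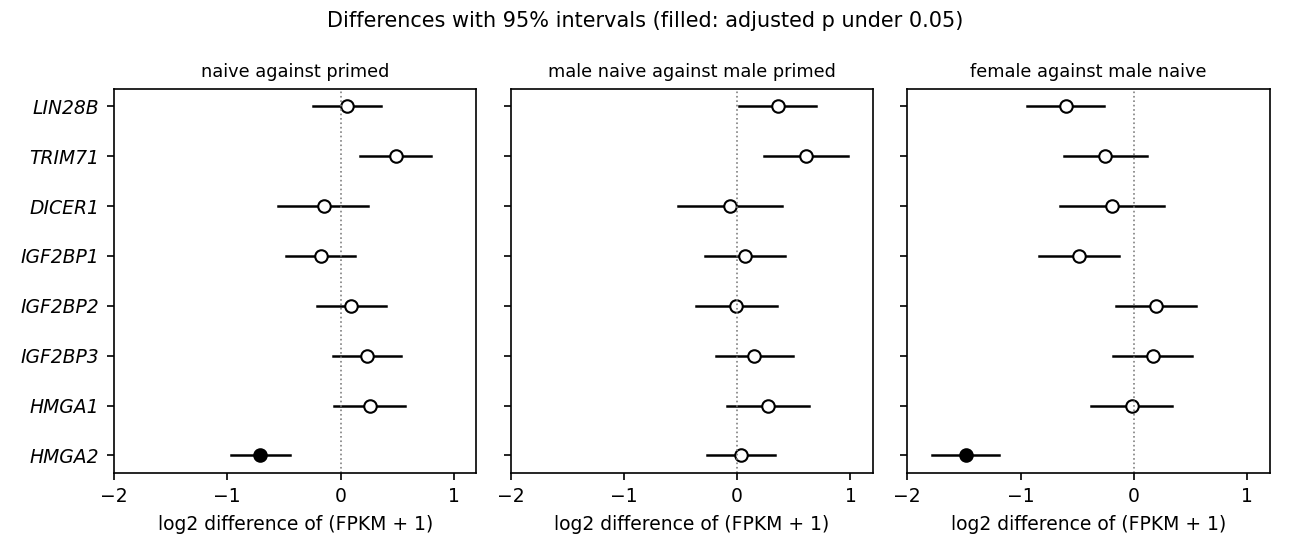
Log2 differences of FPKM + 1 with their 95% intervals (limma) for the 8 genes in 3 comparisons; filled points passed an adjusted p of 0.05. HMGA2 is the filled point at -0.71 in naive against primed and at -1.48 in female against male naive lines, and the remaining points are open.

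In female against male naive lines HMGA2 fell and the other members were not called. Limma called 0 of the 8 genes higher and 1 lower, with 3 at an unadjusted p under 0.05 (HMGA2, LIN28B and IGF2BP1). The unadjusted count has no share of all rows beside it and is not read as a result. Over all tested rows 3.31% were called, 0.76% higher (104 rows) and 2.55% lower (349 rows), and with median-of-ratios scaling 114 were higher and 219 lower. The median of the 8 differences was -0.22, beside -0.10 over all tested rows. That overall median of -0.10 moved to between -0.06 and 0.03 with 4 other scalings of the libraries, with which LIN28B was at -0.45 to -0.55, IGF2BP1 at -0.32 to -0.43 and HMGA2 at -1.32 to -1.43. HMGA2 was called with each of these scalings and the other 2 with none.

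Within males the count was 0 of 8 in either direction by limma, with 2 at an unadjusted p under 0.05 (LIN28B and TRIM71). The count of 2 has no share of all rows beside it and is not read as a result. At the adjusted threshold 5.39% of all tested rows were called, 3.97% higher (543 rows) and 1.42% lower (195 rows). With upper-quartile scaling that split was 391 higher and 357 lower. The 8 differences ran from -0.06 to 0.61, and all 8 of the 95% intervals lay within 1 log2 unit of no difference. The comparison shares its primed libraries with the naive against primed one and its male naive libraries with the female against male one.

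Markers of other cells moved with some of these groups. The summed FPKM of 11 neural markers was 368 to 387 (male naive), 273 to 319 (female naive) and 695 to 904 (primed). The sum was thus lowest in the female naive libraries, as HMGA2 was, and it separated male naive from primed libraries, where HMGA2 overlapped. NES gave the largest part of each naive sum (166 to 263 FPKM, beside 165 and 170 in primed libraries) but had a failed status and was not tested. CRABP1 gave that of each primed sum (408 and 634 FPKM, beside 10.9 to 60.7 in naive libraries). NES had higher means in male and female naive lines (237 and 214 FPKM) than in primed ones (168). TUBB3 was level between male naive and primed lines (means of 21.8 and 20.9 FPKM). OTX2 also went the other way, at 15.0 to 72.2 FPKM (naive) and 0 and 8.21 (primed), and was not called (3.23, adjusted p = 0.0793). None of the 11 was at 0 in every library. Of the 8 tested, 4 were called lower in naive against primed lines, 2 within males and 3 in female against male naive lines. Among all tested rows the shares called lower were 4.59%, 1.42% and 2.55% in the same order. The summed pluripotency markers were 986 to 1043.4 (male naive), 1470.5 to 1972.8 (female naive) and 361 to 446 FPKM (primed), highest in the female naive libraries. POU5F1 gave the largest part of each naive sum (536 to 1160 FPKM). In female against male naive lines 4 of the 9 tested were called higher (44.4%, beside 0.76% of all rows). SOX2, SALL4 and ZFP42 went the other way and were not called, with means of 92.9, 53.9 and 29.0 FPKM (female naive) against 118, 67.4 and 36.8 (male naive). The summed FPKM of 8 mesoderm markers was 19.9 to 32.5 (male naive), 14.1 to 32.2 (female naive) and 3.27 to 4.24 (primed). Of the 4 tested, EOMES and KDR were called higher in naive against primed lines (3.10 and 2.22, adjusted p = 0.0233 and 0.00966). EOMES was also called higher within males (3.39, adjusted p = 0.0371) and KDR in female against male naive lines (1.86, adjusted p = 0.0281). TBXT, MIXL1 and EOMES went the other way in female against male naive lines and were not called (-2.24, -1.18 and -0.57). Among all tested rows 6.72%, 3.97% and 0.76% were called higher in these 3 comparisons, in that order. The summed markers of endoderm were at 21.2 to 89.6 FPKM over the 6 libraries, those of trophoblast and amnion at 16.0 to 43.8 and those of germ cells at 9.77 to 35.3. In naive against primed lines TEAD3 of the trophoblast list (0.92, adjusted p = 0.0276) and TFAP2C of the germ cell list (1.73, adjusted p = 0.015) were called higher, and no other gene of these 3 lists was called in any of the 3 comparisons. These marker genes were named after their values were seen. The part of such cells, and of the depth of the male naive libraries, in the HMGA2 difference was not tested.

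Of 25 genes of let-7 processing and the microRNA machinery, 23 were tested; in naive against primed lines 1 rose and 0 fell, 4.35% of those tested against 11.3% of all rows, with a median of 0.00. SRRT, a cap-binding cofactor of primary microRNA processing, was at 99.1 and 91.6 FPKM (male naive), 75.1 and 90.6 (female naive) and 65.3 and 57.1 (primed) (log2 difference 0.53, SE 0.13, adjusted p = 0.0495). Its call held under 1 of 21 alternatives and ended when any 1 library was left out (adjusted p up to 0.282 over the alternatives). TNRC6C, a partner of Argonaute in silencing, was at 8.0 and 7.1, 3.85 and 2.63, and 10.1 and 8.52 FPKM in the same order and was not called (-0.78, adjusted p = 0.0594). The uridylating enzyme TUT4, chosen after its values were seen, was at 27.9 and 28.8, 22.8 and 17.3, and 33.8 and 32.9 FPKM (-0.48, adjusted p = 0.0896). The nuclease DIS3L2, which degrades uridylated let-7 precursors and was chosen in the same way, was at 4.59 and 5.93, 4.58 and 5.12, and 6.61 and 8.59 FPKM (-0.5, adjusted p = 0.154). Not lower were TUT7 (0.31, adjusted p = 0.323) and TENT2 (0.0, adjusted p = 0.989) of the same list, also chosen after their values were seen. Within males and in female against male naive lines limma called 0 of the 23 genes, where 5.39% and 3.31% of all tested rows were called. At an unadjusted p under 0.05 there were 3 within males and 4 in female against male naive lines. These unadjusted counts have no share of all rows beside them.

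The share of other let-7 targets called was near that of all rows. Of 32 listed genes 29 were tested; 3 rose and 1 fell in naive against primed lines, 13.8% of those tested against 11.3% of all rows, with a median of 0.22 beside 0.03. MYC, a growth-promoting transcription factor, was at 18.6 and 17.4 FPKM (male naive), 37.0 and 59.4 (female naive) and 1.22 and 3.7 (primed), with no overlap between naive and primed. THBS1, a secreted matrix glycoprotein, was at 64.4 and 54.3, 128 and 308, and 9.50 and 14.1 FPKM in the same order and rose by 3.12 (SE 0.35, adjusted p = 0.0102). STARD13 rose by 1.49 (SE 0.33, adjusted p = 0.0412) from 0.653 and 1.04 FPKM in primed libraries to 4.52 and 4.72 (male naive) and 2.29 and 5.87 (female naive).

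E2F2, a cell cycle transcription factor, fell by 1.53 (SE 0.23, adjusted p = 0.017). It was at 3.96 and 4.76 FPKM (male naive), 1.44 and 1.60 (female naive) and 11.8 and 7.73 (primed), so both female naive libraries were the lowest of the 6. E2F2 was called under 14 of 21 alternatives, STARD13 under 11, THBS1 under 19 and MYC under 20. Leaving out any 1 naive library or primed 1 ended the call of E2F2 (adjusted p = 0.0583 to 0.0743), and leaving out primed 1 ended that of THBS1 (0.0606). Leaving out any 1 library but female naive 1 ended the call of STARD13 (adjusted p = 0.0779 to 0.165). Without the female naive libraries MYC was at 2.55 (adjusted p = 0.0592) and E2F2 at -0.98 (0.138). Within males 2 of the 29 targets rose and 0 fell, 6.9% of those tested and near the 5.39% of all rows. MYC was called under 12 of 19 alternatives there and THBS1 under 13. In female against male naive lines 0 rose and 1 fell, 3.45% of those tested and near the 3.31% of all rows. The 1 was HRAS, a small GTPase named after its values were seen (log2 difference -0.86, adjusted p = 0.0486). It was at 39.3 and 45.1 FPKM (male naive), 22.5 and 23.1 (female naive) and 27.4 and 22.4 (primed), and its call was kept under 3 of 19 alternatives. NRAS, MYCN, CCND2 and SALL4, also listed let-7 targets and named after their values were seen, were called in none of the 3 comparisons.

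**Figure D4:**
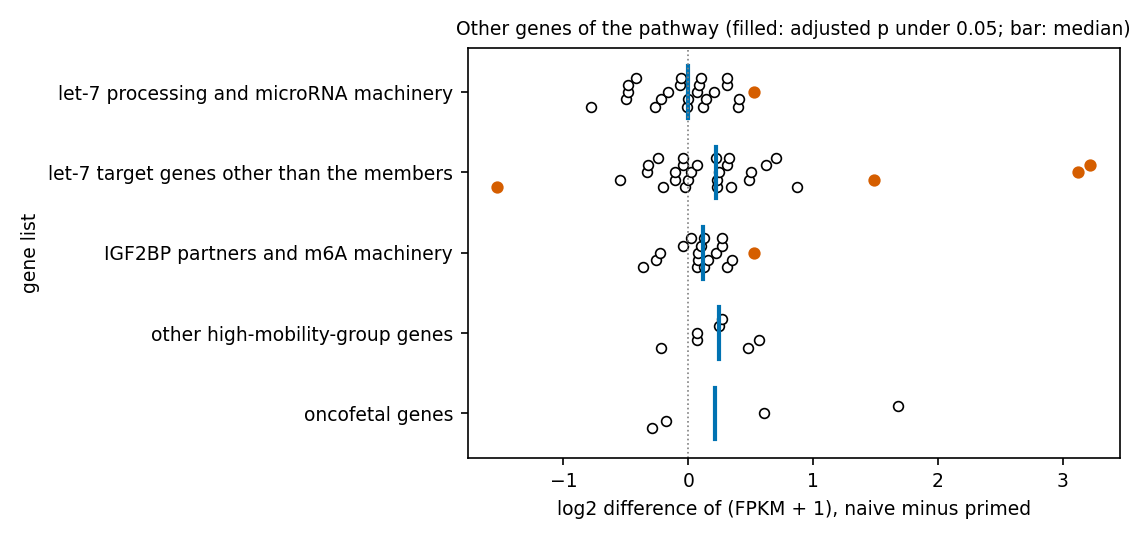
Log2 differences of FPKM + 1 in naive against primed lines for the tested genes of 5 lists around the pathway; each point is a gene, filled points passed an adjusted p of 0.05 and bars are list medians. Called genes are SRRT, SYNCRIP and, among let-7 targets, MYC, THBS1, STARD13 and E2F2, and the medians lie between 0.00 and 0.25.

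Among the partners of IGF2BP proteins and the machinery of N6-methyladenosine, 1 of 18 tested genes rose and 0 fell in naive against primed lines, 5.56% against 11.3% of all rows. SYNCRIP, an RNA-binding protein of the IGF2BP1 complex, was at 191 and 201 FPKM (male naive), 162 and 147 (female naive) and 131 and 110 (primed) (log2 difference 0.53, SE 0.12, adjusted p = 0.0384). Its call was kept under 6 of 21 alternatives and ended when any 1 library was left out (adjusted p up to 0.249 over the alternatives). It also rose within males (0.7, adjusted p = 0.0399), a call kept under 5 of 19 alternatives (adjusted p up to 0.208). In female against male naive lines limma called 0 of the 18 genes, where 3.31% of all rows were called. At an unadjusted p under 0.05 there were 3, a count with no share of all rows beside it. FTO, a demethylase of RNA, was at 25.1 and 22.7, 17.2 and 17.3, and 28.4 and 24.5 FPKM and was not called (-0.36, adjusted p = 0.127). YBX1, another partner named after its values were seen, was at 744 to 905 FPKM in all 6 libraries and was left out of the test because of a failed status.

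Of 8 other high-mobility-group genes 7 were tested, and limma called 0 of them in any of the 3 comparisons. Over all tested rows 11.3%, 5.39% and 3.31% were called in naive against primed lines, within males and between female and male naive lines. An unadjusted p under 0.05 was held by 1, 2 and 1 of the 7 in the same order. Of all 13685 tested rows, 4235 had one in naive against primed lines, and the share in the others is not given here. HMGB3 was at 202 and 220 FPKM (male naive), 200 and 239 (female naive) and 145 and 162 (primed), above primed in every naive library (log2 difference 0.48, adjusted p = 0.0555). HMGN5 had a difference of 0.57 (adjusted p = 0.185). Of 4 tested oncofetal genes, which are typical of fetal tissue, 0 were called in any comparison by limma, with 1 at an unadjusted p under 0.05 in each. AFP, the fetal plasma protein, was at 8.15 and 4.49, 3.33 and 7.99, and 1.68 and 0.600 FPKM (1.68, adjusted p = 0.0502), and PEG10 had a difference of -0.29 (adjusted p = 0.204).

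HMGA2 was the one gene of the 8 whose log2 level spanned more than 1 unit over the libraries (1.58). Among 8859 other named rows with a mean of 5 FPKM or more, the closest patterns over the 6 libraries, by Pearson's r of log2(FPKM + 1), were those of FGFBP3 (r = 0.9999), IQGAP3 (0.9969) and STC2 (0.9966). FGFBP3, a binding protein of fibroblast growth factors, was at 56.9 and 54.3 FPKM (male naive), 5.59 and 5.65 (female naive) and 44.9 and 63.6 (primed). IQGAP3, a scaffold protein, was at 19.9 and 20.8, 8.65 and 9.65, and 19.1 and 21.6 FPKM. STC2, a secreted glycoprotein, was at 7.87 and 8.62, 1.60 and 2.01, and 7.23 and 9.45 FPKM. In all 3 the female naive libraries were the lowest and the male naive values lay inside the primed range. This follows from the choice of the 3 rows by their likeness to HMGA2 and is no separate result. Of the 8859 rows 149 had an r above 0.95 with HMGA2, so the 3 named rows were not alone in a close pattern. Whether that number is large for 6 libraries of which 2 are low was not tested.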

How the data were processed

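Each library came as 1 table in the Cufflinks gene tracking layout, per the file headers. Its FPKM values and their lower and upper bounds were made by the authors and deposited; TopHat 1.3.0 is named in the submitters' processing notes. No genome build or annotation release is named, so positions follow the files, with 1 added to each start because 406 of 480 microRNA rows then had the length of their RefSeq entry. Of the file IDs 15769 matched the symbol table. Bounds were read as 2 SD from FPKM, which gives the effective fragments behind a value (counting error only).

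Limma 3.58.1 (R 4.3.3) was run on log2(FPKM + 1) of all 6 libraries, with 1 mean per group, a trend and 3 residual degrees of freedom, and p-values (two-sided) were adjusted over 13685 rows by Benjamini-Hochberg. It was also run on simulated data with the same noise level for every gene, a simpler case than these libraries, and the outcome is not given here. Another 10 rows were left out for a failed status. The 8 genes and all lists (let-7 processing, let-7 targets, IGF2BP partners, other high-mobility-group genes, oncofetal genes, cell markers) were chosen with earlier results of these data known. Named are the 8 genes, and POU5F1, NANOG and SOX2 as a check of the labels. Also named are up to 4 called genes of smallest p per list (with fewer than 2 called, the 2 of smallest p) in naive against primed lines. The 3 rows most like a gene spanning 1 log2 unit are named too, and any other gene is marked in the text as a later choice.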

Additional observations from a re-analysis of the deposited data

Results flagged for a closer look

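HMGA2 differed between female and male naive lines grown in the same medium, by -1.48 log2 units (adjusted p = 0.00436 by limma, lower in 2 of 2 female lines). Of the 349 rows called lower in this comparison, 188 had a larger drop. Sex, line and sequencing depth cannot be told apart between these groups.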

How the results depend on the processing

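Of 472 values of the 8 genes under alternatives, 427 kept their direction and side of the threshold, 10 lost the threshold, 1 gained it and 34 changed sign. The causes were not tested. HMGA2 changed sign in 1 of its called comparisons and every other sign change was in a difference that was not called.

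In naive against primed lines, LIN28B was at -0.04 with upper-quartile scaling, -0.07 with quantile normalization and -0.24 without the male naive libraries, and IGF2BP2 at -0.01 and -0.05 with the same scalings. With effective fragments per library size, an alternative added after seeing the data, IGF2BP2 was at -0.21, HMGA1 at -0.09 and HMGA2 at -0.73 (adjusted p = 0.0527). Without the female naive libraries, also added later, IGF2BP1 was at 0.07, IGF2BP2 at -0.01, HMGA2 at 0.03 and PEG10 at 0.03. With sex ignored HMGA2 was at -0.71 and not called, and precision weights brought TRIM71 (0.49) past the threshold. Leaving out 1 library at a time gave -0.01 to 0.13 for LIN28B and -0.83 to -0.59 for HMGA2.

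Within males, upper-quartile scaling put IGF2BP1 at -0.1, IGF2BP3 at -0.02 and HMGA2 at -0.14, quantile normalization put them at -0.16, -0.09 and -0.28, and median-of-ratios scaling put IGF2BP1 at -0.04 and HMGA2 at -0.08. HMGA2 was at 0 when FPKM was rescaled without rows under 300 bp, and at -0.03 with effective fragments, where HMGA1 was at -0.34. Leaving out 1 library at a time gave -0.06 to 0.2 for IGF2BP1, -0.1 to 0.09 for IGF2BP2, -0.19 to 0.08 for DICER1 and -0.08 to 0.15 for HMGA2. In female against male naive lines HMGA1 was at 0.11, 0.13, 0.13 and 0.03 with upper-quartile, quantile, median-of-ratios and short-row scaling and at 0.5 with effective fragments. Leaving out 1 library gave -0.1 to 0.06 for HMGA1 and -1.5 to -1.47 for HMGA2.

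Genes called in naive against primed lines (1548) came to 941 with no filter, 625 without the male and 348 without the female naive libraries, 250 with sex ignored and 177 to 1081 with 1 library left out. Within males (738) they came to 400 with no filter, 348 with only the 2 groups in the fit and 51 to 626 with 1 library left out. Between female and male naive lines (453) they came to 268 with no filter and 41 to 523 with 1 library left out. The fewest calls came without primed 1 in the first comparison and without male naive 2 in the others. A group reduced to 1 library is assumed to vary like the others.

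Library numbers did not pair the samples (correlations of deviations -0.06, -0.05 and -0.263). With the replicate block 812, 373 and 207 genes were called in the 3 comparisons, HMGA2 stayed called in both (adjusted p = 0.0372 and 0.0189) and no other of the 8 genes was called.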
